A study of Mus musculus with 3 samples.

Results

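The peaks described here are regions enriched for 5-methylcytosine (5mC) that lie in genes for long non-coding RNAs (lncRNAs) and in no protein-coding gene. A peak on chr1 to chr19 was taken when its midpoint fell between the start and end of a gene with the biotype lncRNA in the RefSeq annotation of mm10 and outside every protein-coding gene. The rule gave 11531 of the 134294 autosomal Sham peaks and 13132 of the 159304 autosomal TAC peaks. These lncRNA-only peaks lay in 5695 of the 12408 autosomal lncRNA genes of the annotation. A peak in the overlap of several lncRNA genes counts once in totals and once for each gene, which applied to 520 Sham peaks and 552 TAC peaks.

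The libraries are methylated DNA immunoprecipitation sequencing (MeDIP-seq) of genomic DNA from isolated cardiomyocytes, with 1 library per group. The mice were C57Bl6/J males, 8 weeks of age. The Sham group had the control procedure, and the TAC group had 1 week of pressure overload (TAC stands for transverse aortic constriction, a narrowing of the aorta that raises the load on the left ventricle). No other treatment and no genetic change is named for either group. An Input library without antibody entered the peak calling and was otherwise not analysed here. The sources used here do not say how many mice went into each library. With 1 library per group there was no spread between replicates, so no difference below has a replicate check, and the libraries were compared without a test. Intervals in parentheses are exact 95% binomial intervals that cover counting error only, and neighbouring peaks are not independent. The Sham library had 12585289 tags and the TAC library 14658177, and the file headers give a threshold of 11 tags per peak in Sham and of 12 in TAC.

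An lncRNA gene is transcribed into a long RNA that is not read into protein. Some lncRNAs act where they are made, on neighbouring genes of the same chromosome, some act elsewhere in the nucleus or cytoplasm, and some serve as the precursor of microRNAs or small nucleolar RNAs. 5mC in mammals is found mainly at cytosines followed by guanine (CG). It covers most of the genome outside CG-rich promoters, and at imprinted genes it marks the copy from 1 parent. MeDIP pulls down DNA fragments with an antibody against 5mC, so a peak marks a region with enough methylated CG to stand above the input and is not a methylation level. In such bulk DNA, enrichment in few cells cannot be told apart from weaker enrichment in all cells. The labelled cell type could not be set against marker genes, because a peak list holds no expression.

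Promoter windows of 300 bases run from 250 bases before the annotated gene start to 50 after it. They show how different the DNA at or beside these peaks can be. The following 5 windows are from RefSeq on GRCm38.p6, the assembly that mm10 names, and are written 5′ to 3′ on the strand of the gene with each CG in capitals. They were chosen as the window richest in CG among the named genes under a peak, and a window under a peak that differed in width between libraries. The others lay under the earliest and the widest of the peaks over a promoter window of these genes, or held 1 CG.
Snhg11, chr2:158375463-158375762, plus strand, 21 CG: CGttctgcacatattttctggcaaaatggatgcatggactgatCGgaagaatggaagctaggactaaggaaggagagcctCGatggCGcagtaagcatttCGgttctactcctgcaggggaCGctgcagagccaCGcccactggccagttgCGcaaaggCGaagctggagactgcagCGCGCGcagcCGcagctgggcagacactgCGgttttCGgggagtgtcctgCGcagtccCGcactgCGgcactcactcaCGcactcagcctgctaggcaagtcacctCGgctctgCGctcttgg
Gm31816, chr9:47362708-47363007, minus strand, 10 CG: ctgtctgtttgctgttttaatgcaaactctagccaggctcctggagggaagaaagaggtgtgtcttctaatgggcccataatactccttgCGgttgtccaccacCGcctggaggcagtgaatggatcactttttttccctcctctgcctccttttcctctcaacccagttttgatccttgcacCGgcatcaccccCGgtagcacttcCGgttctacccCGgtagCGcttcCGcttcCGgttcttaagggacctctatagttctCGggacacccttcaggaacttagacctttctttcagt
Gm40237, chr4:118547156-118547455, plus strand, 10 CG: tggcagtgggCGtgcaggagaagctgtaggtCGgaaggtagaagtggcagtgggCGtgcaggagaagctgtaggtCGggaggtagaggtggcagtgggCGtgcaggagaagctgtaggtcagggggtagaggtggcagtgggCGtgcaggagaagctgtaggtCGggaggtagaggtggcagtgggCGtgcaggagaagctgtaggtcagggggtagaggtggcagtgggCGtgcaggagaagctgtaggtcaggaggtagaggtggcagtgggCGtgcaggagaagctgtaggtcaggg
LOC115489511, chr2:30686947-30687246, plus strand, 8 CG: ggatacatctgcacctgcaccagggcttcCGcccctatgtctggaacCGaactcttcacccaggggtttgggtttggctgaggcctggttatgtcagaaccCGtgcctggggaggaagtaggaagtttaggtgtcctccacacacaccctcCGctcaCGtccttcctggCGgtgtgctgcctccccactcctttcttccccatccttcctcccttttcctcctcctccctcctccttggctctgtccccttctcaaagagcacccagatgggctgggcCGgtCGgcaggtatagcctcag
1700019L22Rik, chr8:50799558-50799857, minus strand, 1 CG: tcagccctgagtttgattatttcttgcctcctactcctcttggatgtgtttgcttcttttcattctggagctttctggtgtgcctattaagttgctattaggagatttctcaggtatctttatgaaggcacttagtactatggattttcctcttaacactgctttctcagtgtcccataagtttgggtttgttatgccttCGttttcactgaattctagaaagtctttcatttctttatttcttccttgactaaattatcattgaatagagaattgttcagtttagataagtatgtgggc

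The Snhg11 window was overlapped by a TAC peak at chr2:158375121-158375621 and by no Sham peak. The midpoint of that peak lies upstream of the gene, so it is not among the lncRNA-only peaks. The Gm31816 window lay under a Sham peak of 501 bp and a TAC peak of 2205 bp. The Gm40237 window lay under the first-ranked lncRNA-only peak of each list, 2169 bp wide in Sham and 2162 bp in TAC. It is made of a tandem repeat: the 33 bases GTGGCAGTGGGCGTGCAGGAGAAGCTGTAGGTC occur 6 times in the window, each 44 bases after the last. On either strand, that stretch is held by 2 of the 32851 promoter windows of the table (0.00609%), both of this gene. How well short reads can be placed in such a repeat was not tested. The LOC115489511 window lay under a peak in both libraries. The 1700019L22Rik window was overlapped by a TAC peak of 501 bp alone, at chr8:50799133-50799633. That peak covers only the lower-coordinate part of the window, and the CG of the window lies outside it.

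Several lncRNA-only peaks covered a microRNA hairpin. Of the 99 autosomal hairpins located in lncRNA genes outside protein-coding genes, 4 were overlapped by a lncRNA-only Sham peak (4.04%), 4 by a TAC peak, and 1 of them by both. Of all 919 autosomal hairpins, 64 were under a Sham peak (6.96%) and 46 under a TAC peak (5.01%). The mature microRNAs of the 3 with the best known host genes are given 5′ to 3′ from RefSeq, with the seed (bases 2 to 8, the part that pairs with target RNAs) in capitals.
mmu-miR-675-5p, from Mir675 in H19: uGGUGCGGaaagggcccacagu
mmu-miR-675-3p, from Mir675 in H19: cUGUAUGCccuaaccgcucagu
mmu-miR-125b-5p, from Mir125b-1 in Mir100hg: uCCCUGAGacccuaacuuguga
mmu-miR-125b-1-3p, from Mir125b-1 in Mir100hg: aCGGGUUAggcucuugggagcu
mmu-miR-770-5p, from Mir770 in Meg3: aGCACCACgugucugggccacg
mmu-miR-770-3p, from Mir770 in Meg3: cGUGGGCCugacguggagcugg

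No seed is shared among these 6. The hairpin under a peak in both libraries was Mir675, at chr7:142577064-142577147. Mir125b-1, at chr9:41581926-41582002, was under a TAC peak alone, and Mir770, at chr12:109563692-109563785, under a Sham peak alone. The other hairpins were Mir6368 in 2610307P16Rik and Gm51282 in Gm30013, under a Sham peak alone, and Mir6377 in Gm26671 and Gm51292 in Gm40277, under a TAC peak alone.

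Sham and TAC peaks were compared to see how 5mC enrichment in lncRNA genes differed after 1 week of pressure overload. TAC held more lncRNA-only peaks than Sham, with a ratio of TAC to Sham peak numbers of 1.14 (1.11 to 1.17). The excess was larger than that of autosomal peaks in protein-coding genes (1.07, 1.05 to 1.08) and smaller than that of peaks in no gene (1.32, 1.31 to 1.34), and the intervals of these classes do not overlap. Over all autosomal peaks the ratio was 1.19 (1.18 to 1.19), so the lncRNA-only excess was smaller than that of the list as a whole. lncRNA-only peaks made up 8.59% of the autosomal Sham peaks and 8.24% of the autosomal TAC peaks. Over the 171 Mb of lncRNA genes outside protein-coding genes there were 67.4 Sham and 76.7 TAC peaks per Mb, beside 64.0 and 68.2 per Mb of protein-coding genes. The level of the ratio rests on how many rows of the TAC list are used: with the TAC list shortened to the number of Sham peaks, the ratio was 0.975 (0.950 to 1.001), with 0.899 in protein-coding genes and 1.11 in no gene. The place of lncRNA genes between the other classes held under each of the 5 peak selections run.

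Most Sham peaks in lncRNA genes had a TAC counterpart, where shared means an overlap of at least 1 bp. A TAC peak lay over 67.7% (66.8 to 68.5) of the lncRNA-only Sham peaks, and a Sham peak over 59.5% (58.6 to 60.3) of the lncRNA-only TAC peaks. No overlap was found for 3729 Sham peaks (32.3%, beside 33.8% of all autosomal Sham peaks) and 5321 TAC peaks (40.5%, beside 44.1% of all autosomal TAC peaks). These shares are near those of all autosomal peaks. In protein-coding genes 63.8% of Sham and 60.2% of TAC peaks were shared, and in no gene 68.4% and 51.7%. The lncRNA-only shares thus lay within the range of the other classes. The ratio of TAC peaks without overlap to such Sham peaks was 1.43 (1.37 to 1.49), beside 1.54 over all autosomal peaks, 1.17 in protein-coding genes and 2.02 in no gene. With the TAC list shortened to the number of Sham peaks this ratio fell below 1, to 0.934 (0.894 to 0.975).

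The row of a peak in its deposited list served as a rank, since the lists are not in genome order and their first rows hold the peaks that are most often shared. Row percentile 0 is the first row and 100 the last, and percentiles from lists of different length are set side by side without reading a change from them. The median row percentile of lncRNA-only peaks was 47.9 in Sham and 46.5 in TAC, beside 49.8 and 49.6 for all autosomal peaks. The first 10% of the list held 10.8% of the lncRNA-only Sham peaks and 11.6% of the TAC peaks, beside 10.1% of all autosomal peaks in each library. In those first rows, 99.2% of lncRNA-only Sham peaks and 98.4% of TAC peaks were shared. In the last 10%, 38.5% and 25.5% were shared, beside 39.4% and 23.0% of all autosomal peaks. Sharing in lncRNA genes therefore followed the row order along the same course as in the whole list.

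**Figure D1:**
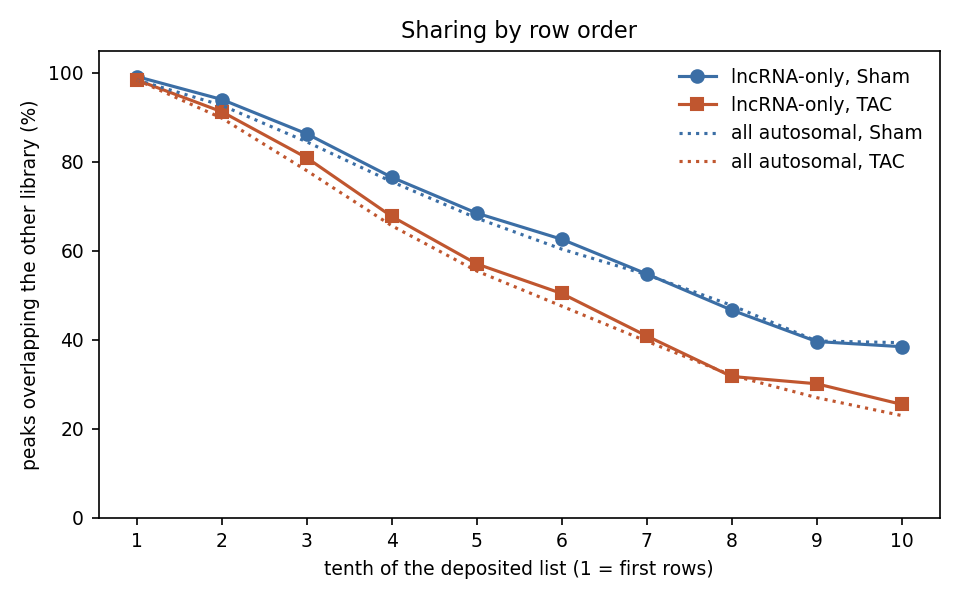
Share of peaks that overlap a peak of the other library (y axis, %) in each 10% of the deposited list (x axis, 1 for the first rows), for lncRNA-only peaks (solid lines with points) and all autosomal peaks (dotted lines) in Sham (blue) and TAC (orange). The lncRNA-only share falls from 99.2% to 38.5% in Sham and from 98.4% to 25.5% in TAC, close to the dotted lines throughout.

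The rows run through 352 blocks in Sham and 414 in TAC, each sorted by position, which can be read as falling tag numbers with 8 tags in the last block. The number read from a block is called the inferred tag number here. No source used here states that reading, and it places some peaks below the tag threshold of the file headers. The median lncRNA-only peak had 19 inferred tags in Sham and 22 in TAC, which per 10000000 total tags is 15.1 and 15.0. The median width was 501 bp in both libraries, which is the width of 57.6% of the lncRNA-only peaks in each.

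Among the 7802 shared pairs of a lncRNA-only Sham peak and the TAC peak it overlaps, the TAC peak lay nearer the front of its list in 60.3% (59.2 to 61.4). The same share was 58.9% over all autosomal pairs, 53.8% in protein-coding genes and 63.8% in no gene. By over 10 percentile points, 2699 pairs (34.6%) lay nearer the front in TAC, beside 35.1% of all autosomal pairs, and 1600 (20.5%) nearer the end, beside 21.8%. These shares are close to those of all pairs. The median pair had a log2 ratio of inferred tags per 10000000, TAC over Sham, of 0.10, the same as for all autosomal pairs. With the shortened TAC list the share nearer the front was 50.9%, so it gives no direction that is free of list length.

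The TAC excess of lncRNA-only peaks was found mainly where protein-coding genes are few, as was that of peaks in protein-coding genes. In windows of 1 Mb without a protein-coding gene, 662 Sham and 972 TAC peaks gave a ratio of 1.47 (1.33 to 1.62). In windows with 1 to 2 protein-coding genes the ratio was 1.26 (1.18 to 1.34), with 3 to 5 it was 1.14 (1.09 to 1.20), and with 6 to 10 it was 1.08 (1.03 to 1.14). In windows with 11 to 20 such genes the ratio of 1.03 (0.976 to 1.10) was not distinguishable from an even split, nor was that of 1.09 (0.984 to 1.20) in windows with over 20. Within a given density, lncRNA-only peaks were closer to peaks in protein-coding genes than to peaks in no gene. Their interval overlapped that of protein-coding peaks in all 6 density classes and lay wholly below that of peaks in no gene in all 6. In windows without a protein-coding gene, peaks in no gene gave 1.80 (1.74 to 1.86), and with 11 to 20 genes 1.15 (1.12 to 1.18). Genes were counted in the window of their midpoint, so windows without one can still hold peaks in protein-coding genes. Such peaks gave 1.52 (1.36 to 1.71) there, 1.30 (1.26 to 1.34) with 1 to 2 genes and 0.981 (0.960 to 1.002) with 11 to 20. In the 2 sparsest classes the lncRNA-only ratio was thus slightly below that of protein-coding peaks. With the TAC list shortened to the number of Sham peaks, the lncRNA-only ratio was 1.21 in windows without a protein-coding gene and between 0.905 and 1.06 in the other classes.

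**Figure D2:**
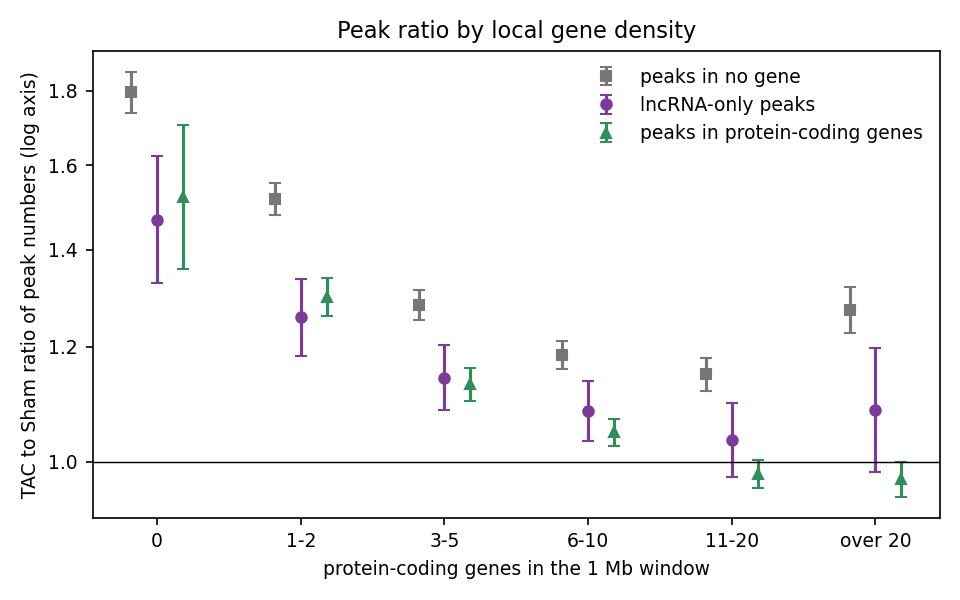
Ratio of TAC to Sham peak numbers (y axis, log scale) by the number of protein-coding genes in the 1 Mb window of the peak (x axis), for peaks in no gene (grey squares), lncRNA-only peaks (purple circles) and peaks in protein-coding genes (green triangles), with exact 95% intervals for counting error. The lncRNA-only ratio is 1.47 in windows without a protein-coding gene and 1.03 in windows with 11 to 20.

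Per gene, most lncRNA genes held few peaks. Of the 5695 genes, 1282 held 1 peak in both libraries together, 1423 held 2, 1339 held at least 6 and 139 at least 20. Peaks of both libraries lay in 4155 genes, Sham peaks alone in 626 and TAC peaks alone in 914. TAC peaks outnumbered Sham peaks in 2219 genes, Sham peaks outnumbered TAC peaks in 1501, and 1975 had equal numbers. Among 13631 protein-coding genes with a peak, 10833 had peaks of both libraries, 1263 Sham peaks alone and 1535 TAC peaks alone. TAC peaks were more numerous in 5348 protein-coding genes, Sham peaks in 4549, and 3734 had equal numbers. Genes named only by a predicted-gene number (Gm), 4577 of the 5695 lncRNA genes, gave a ratio of 1.14 (1.10 to 1.17). Those with a Rik clone name gave 1.15 (1.08 to 1.22), and the 266 with another name 1.10 (0.992 to 1.22).

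Among the 1339 lncRNA genes with at least 6 peaks, 216 had at least 2-fold more TAC than Sham peaks, which is 16.1% of them, and 65 had at least 2-fold more Sham peaks, 4.85%. The same shares were 10.4% and 5.66% of 5615 protein-coding genes, and 11.5% and 5.51% of all genes of either kind. Among genes with 6 to 9 peaks, 20.9% of lncRNA genes and 17.4% of protein-coding genes were 2-fold higher in TAC, and 7.95% and 11.9% in Sham. With 10 to 19 peaks the shares were 11.5% and 7.62% in TAC, and 1.12% and 3.39% in Sham. With 20 or more peaks, 5.04% of lncRNA genes were 2-fold higher in TAC and 0 of the 139 in Sham, beside 4.89% and 0.543% of protein-coding genes. In windows without a protein-coding gene, 27 of 90 lncRNA genes with at least 6 peaks (30.0%) were 2-fold higher in TAC, against 7 of 77 (9.09%) in windows with over 20. No protein-coding gene fell in the first of these classes. In the other classes the share fell with density in both kinds of gene. With 1 to 2 genes it was 20.8% of lncRNA and 19.03% of protein-coding genes. With 6 to 10 it was 13.7% and 10.7%, and with over 20 it was 9.09% and 7.31%. With the TAC list shortened to the number of Sham peaks, 109 genes (8.96%) were 2-fold higher in TAC and 106 (8.72%) in Sham, beside 5.26% and 10.7% of protein-coding genes. With a nearly equal threshold per total tags they were 142 (11.6%) and 84 (6.87%), beside 7.19% and 8.42%. The majority in TAC was thus nearly gone with the shortened TAC list. It remained with the first 50% of each list (88 genes in TAC and 25 in Sham) and with peaks of at least 600 bp (47 and 23). Shortening brings the ratio over all autosomal peaks to 0.998, so it cannot show whether list length is the cause. That was not tested.

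A930011G23Rik, a gene of 432 kb at chr5:99297244-99729060, 44.3 kb from Rasgef1b, held 70 Sham and 65 TAC peaks, the most of any lncRNA gene. Of these, 51 Sham and 52 TAC peaks were shared, and the median row percentile was 39.3 in Sham and 39.0 in TAC. Its earliest peak, at chr5:99361602-99363080 in Sham and chr5:99361432-99363205 in TAC, stood at row percentile 0.0600 and 0.0503. Both libraries were therefore alike in number, sharing and leading peak in this gene. Gm46414, at chr13:51208641-51371942, held 36 Sham and 39 TAC peaks with 29 shared in each, and Gm38475, at chr6:145453345-145614319, held 31 and 29 with 23 shared in each.

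Some other lncRNA genes with many peaks were less even. Gm32647, at chr7:94042496-95326426 and 1284 kb long, held 20 Sham and 46 TAC peaks, so that TAC had 69.7% (57.1 to 80.4) of them. In each library 13 of its peaks were shared, and 33 TAC peaks had no Sham counterpart. With the TAC list shortened to the number of Sham peaks, Gm32647 held 20 and 32, a TAC share of 61.5% (47.0 to 74.7), which includes an even split. 1700019L22Rik, at chr8:50117897-50917433, held 18 and 32, of which TAC had 64.0% (49.2 to 77.1). In contrast, 6030407O03Rik, at chr1:73618381-73864466 and 45.8 kb from Tns1, held 30 Sham and 19 TAC peaks. Gm33655, at chr4:114576917-114903946, held 30 and 22, and 2610307P16Rik, at chr13:28460034-28885422, held 35 and 30. The intervals of the TAC share of these last 3 genes all included an even split. Zmiz1os1, named for its place beside Zmiz1, held 24 and 22 peaks, and A930035F09Rik, 0.354 kb from Nrp1, 22 and 21.

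**Figure D3:**
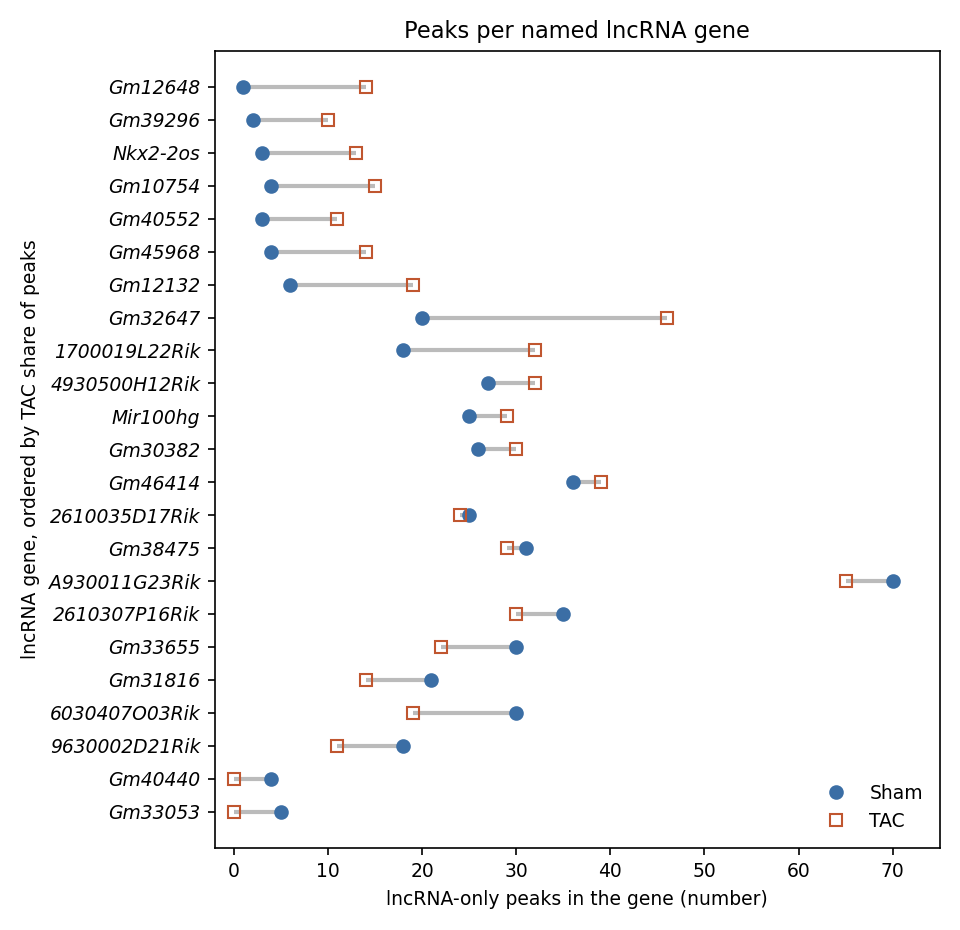
Number of lncRNA-only peaks (x axis) in Sham (filled blue circles) and TAC (open orange squares) for the lncRNA genes named for most peaks, the highest TAC share or the lowest TAC share (y axis, ordered by TAC share, with a grey line joining the libraries). Gm32647 has 20 Sham and 46 TAC peaks and Gm12648 has 1 and 14, while A930011G23Rik has 70 and 65.

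The 8 genes whose TAC share had the highest lower bound lay in peak-poor surroundings, with 19 to 28 Sham peaks in the 500 kb on either side, against 52 to 89 around the 8 genes at the other end. These 8 genes were chosen by their TAC share. With the TAC list shortened to the number of Sham peaks, only the interval of Gm12648 (64.0% to 99.8%) still lay above an even split. Gm12648, at chr4:94088138-94425588, held 1 Sham and 14 TAC peaks, and none of them overlapped. Its Sham peak stood at row percentile 67.6, and its TAC peaks between 26.3 and 90.3, most of them 501 bp wide. Around the gene there were 25 Sham and 36 TAC peaks, a less uneven split than inside it. Nkx2-2os, which runs beside the gene for the neural and pancreatic regulator Nkx2-2, held 3 Sham and 13 TAC peaks, of which 2 in each library were shared. Its strongest TAC peak by row order, at chr2:147225464-147226352, stood at percentile 14.9 and had no Sham counterpart. Its surroundings held 24 Sham and 34 TAC peaks.

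The other genes of this kind are predicted models with no function known here. Gm12132, at chr11:40008194-40337842, held 6 Sham and 19 TAC peaks, with 28 and 42 in its surroundings. Gm10754 held 4 and 15, Gm45968 held 4 and 14, Gm40552 held 3 and 11 and Gm39296 held 2 and 10. All Sham peaks of these last 4 genes were shared with TAC. Over all their TAC peaks, shared and unshared, the median row percentile was 79.8 in Gm10754, 65.3 in Gm45968, 74.1 in Gm40552 and 79.2 in Gm39296. Around these 4 genes the TAC to Sham ratio of peaks in the 500 kb on either side was between 1.77 and 2.63.

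At the other end, the genes whose TAC share had the lowest upper bound each had an interval that included an even split. Gm33053, at chr9:59191201-59235071, held 5 Sham peaks and no TAC peak, and Gm40440, at chr12:72027316-72040193, held 4 and none. The upper bound of the TAC share was 52.2% in Gm33053 and 60.2% in Gm40440. The earliest of the Gm33053 peaks stood at row percentile 15.9 and the earliest of the Gm40440 peaks at 70.5. Their surroundings were even, with 71 Sham and 65 TAC peaks around Gm33053 and 75 and 68 around Gm40440. 9630002D21Rik, at chr12:71577931-71718589, held 18 Sham and 11 TAC peaks, and Gm31816, at chr9:47259985-47368729, held 21 and 14.

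Imprinted lncRNA genes, which are read from the copy of 1 parent, were mostly marked in both libraries. Of 13 autosomal lncRNA genes on this list, 9 held a peak, with 26 Sham and 29 TAC peaks in all. Shared were 22 of the Sham peaks (84.6%) and 21 of the TAC peaks (72.4%), beside 67.7% and 59.5% of all lncRNA-only peaks. The median row percentile was 28.8 in Sham and 37.7 in TAC. In the 10% of the list that holds this median, 86.3% of all lncRNA-only Sham peaks and 67.8% of the TAC peaks were shared. TAC peaks were more numerous in 4 of the genes, Sham peaks in 2, and 3 had equal numbers.

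Meg3, the maternally read lncRNA of the Dlk1 to Dio3 region at chr12:109540996-109571729, held 10 Sham and 7 TAC peaks over its whole length. Outside protein-coding genes it held 8 Sham and 6 TAC peaks. Of these, 7 Sham and all 6 TAC peaks were shared. A Sham peak at chr12:109560477-109561949, row percentile 6.97, and a second one at chr12:109559272-109559939, percentile 34.6, both lay under a single TAC peak of 2497 bp at chr12:109559539-109562035, percentile 2.39. The Sham peak without counterpart, at chr12:109563328-109563993 and percentile 29.2, is the one over the Mir770 hairpin. Downstream in the same region, Rian, a host of small nucleolar RNAs, held 2 Sham peaks and 1 TAC peak, and 1 was shared.

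Snhg14, the long transcript that runs antisense to Ube3a at chr7:59272737-60450177, held 11 Sham and 22 TAC peaks over its whole length. Outside protein-coding genes it held 5 Sham and 8 TAC peaks, and all 5 Sham peaks were shared. The earliest of these lncRNA-only peaks, at chr7:59960724-59961476 in Sham, stood at row percentile 1.26 in Sham and 0.643 in TAC. Ipw, which lies inside Snhg14, held 2 and 4 of the lncRNA-only peaks. Airn, the paternally read transcript that silences Igf2r, held 5 Sham and 7 TAC peaks in its part outside protein-coding genes, with 4 shared in each. H19, the maternally read growth regulator at chr7:142575530-142578146, held 1 peak in each library, 1368 bp wide in Sham and 630 bp in TAC, at row percentile 10.5 and 35.5. H19 was named after its values were seen, because it holds the only hairpin under a peak in both libraries.

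lncRNAs studied in heart muscle held 43 Sham and 35 TAC peaks, in 12 of 23 genes, a ratio of 0.814 (0.506 to 1.30) with an interval that includes the 1.14 of all lncRNA-only peaks. TAC peaks were more numerous in 1 of the 12, Sham peaks in 4, and 7 had equal numbers. Pvt1, beside the Myc oncogene at chr15:62037986-62260215, held 20 Sham and 16 TAC peaks, of which 12 in each library were shared. Its earliest peak, at chr15:62186647-62187275 in Sham, stood at row percentile 5.67 in Sham and 3.78 in TAC. Lncpint, a target of the tumour suppressor p53, held 7 in each with 2 shared. Crnde, 1.68 kb from Irx5, held 3 and 2, with 2 shared.

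Fendrr, a regulator of heart and body wall development beside Foxf1, was the single gene of the heart list with peaks in 1 library alone. At chr8:121054882-121083110 it held 3 Sham peaks and no TAC peak. The Sham peaks, at chr8:121069489-121070591, chr8:121060144-121061147 and chr8:121058755-121059255, stood at row percentile 17.9, 32.2 and 58.7. The surroundings of 500 kb on either side held 173 Sham and 171 TAC peaks. With 3 peaks the interval of the TAC share reaches 70.8%, so counting error alone does not separate this gene from an even split. Carmn, a cardiac and smooth muscle lncRNA that hosts Mir143 and Mir145, held 2 peaks in each library, all shared, the earlier at row percentile 4.96 in Sham and 4.58 in TAC. Gata6os, beside the cardiac regulator Gata6, held 1 and 2.

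MicroRNA host genes held 44 Sham and 54 TAC peaks in 11 of 18 genes. Shared were 34 of the Sham peaks (77.3%) and 35 of the TAC peaks (64.8%), beside 67.7% and 59.5% of all lncRNA-only peaks. Mir100hg, which hosts Mir100, Mirlet7a-2 and Mir125b-1 at chr9:41376526-41615185, held 25 Sham and 29 TAC peaks, and 21 Sham and 22 TAC peaks were shared. Its earliest TAC peak, at chr9:41523985-41524877 and row percentile 0.313, matched a Sham peak at percentile 0.407. Its earliest Sham peak, at chr9:41407461-41410771, was 3311 bp wide, and the TAC peak under it was 1762 bp wide. Mir99ahg, which hosts the related Mir99a and Mir125b-2, held 3 Sham and 8 TAC peaks, with 2 shared in each, and its earliest peak stood at percentile 4.81 in Sham and 3.20 in TAC. The interval of its TAC share, 39.0% to 94.0%, includes an even split. Mir670hg held 4 and 7, with all 4 Sham peaks shared, and Mir1a-1hg, which hosts the muscle microRNA Mir1a-1, held 1 and 2. Mir9-3hg and Mirc35hg, named after their values were seen as the hosts with peaks in 1 library alone, held 3 Sham peaks and 1 Sham peak and no TAC peak.

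**Figure D4:**
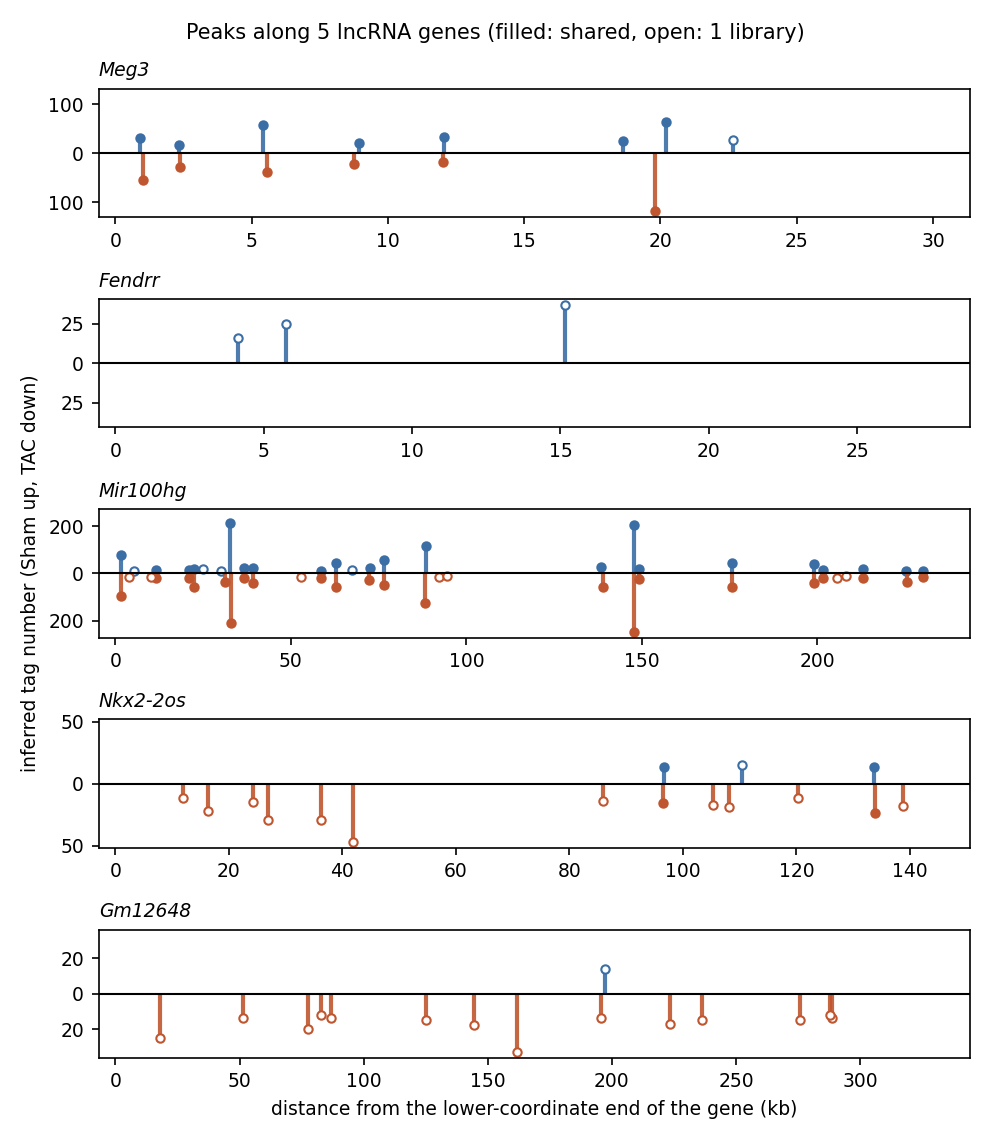
Peaks along Meg3, Fendrr, Mir100hg, Nkx2-2os and Gm12648, at their distance from the lower-coordinate end of the gene (x axis, kb), with the inferred tag number as height (y axis, Sham up in blue, TAC down in orange). Filled points overlap a peak of the other library and open points do not: Meg3 and Mir100hg are mostly filled, the 3 Sham peaks of Fendrr and all 15 peaks of Gm12648 are open, and Nkx2-2os has 2 filled points in each library.

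lncRNA genes beside developmental regulators held 46 Sham and 62 TAC peaks in 18 of 26 genes, a ratio of 1.35 (0.906 to 2.02). Without Nkx2-2os, a setting chosen after seeing the data, they held 43 and 49, a ratio of 1.14 (0.741 to 1.76). TAC peaks were more numerous in 10 of the 18, Sham peaks in 3, and 5 had equal numbers. Nkx2-2os, described above, was the most uneven of the 6 named from this list. Otx2os1, beside the head and eye regulator Otx2, held 10 and 13 peaks with 6 shared in each. Sox2ot, which spans the stem cell factor gene Sox2, held 6 and 7, and all 6 Sham peaks were shared. Pax6os1 held 5 and 6, Dlx6os1 held 3 and 4 and Wt1os held 4 in each. Of the 46 Sham peaks on this list 29 (63.0%) were shared, and of the 62 TAC peaks 29 (46.8%), beside 67.7% and 59.5% of all lncRNA-only peaks. The median row percentile of the list was 56.7 in Sham and 62.2 in TAC. In the 10% of the list that holds this median, 62.6% of all lncRNA-only Sham peaks and 40.9% of the TAC peaks were shared. Nkx2-2os alone held 11 of the TAC peaks without a Sham counterpart.

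Genes with an antisense or opposite-strand name held 217 Sham and 240 TAC peaks in 73 of 217 genes, a ratio of 1.11 (0.917 to 1.34). Irx3os, 1.68 kb from the cardiac conduction gene Irx3, held 13 in each library, with row percentiles from 0.502 in Sham and 0.338 in TAC. Banf2os held 17 and 15, and Junos, 0.095 kb from the immediate early gene Jun, 13 and 10. Known from other cells of the heart were 12 genes, of which 8 held 67 Sham and 78 TAC peaks. Morrbid, which governs the lifespan of short-lived myeloid cells, held 17 in each with 11 shared, and Ifngas1, beside the T cell cytokine gene Ifng, 10 in each with 8 shared. Lockd, 3.57 kb from the cell cycle inhibitor gene Cdkn1b, held 1 Sham and 5 TAC peaks. Peaks at genes of these cells carry no measure of how many such cells were present. Meg3, H19, Mir100hg, Mir99ahg and Carmn stand on several of these lists, so the lists are not independent.

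Of 19 host genes of small nucleolar RNAs, 4 held a peak (21.1%), beside 5695 of all 12408 autosomal lncRNA genes (45.9%). The host genes had a median length of 3.07 kb, and all autosomal lncRNA genes one of 8.39 kb. The part of gene length in the difference was not tested. The 4 were Snhg14 and Rian, described above, Snhg11 with 1 Sham and 2 TAC peaks, and Snhg1 with 1 Sham peak at row percentile 99.5, near the end of the list. The Platr genes, first described as transcripts of pluripotent cells, held 24 Sham and 25 TAC peaks in 11 of 16 genes. Platr11 held 7 and 9, and Platr26 held 2 in each, the earliest at row percentile 0.298 in Sham and 0.375 in TAC.

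In all, 48 genes of the lists other than the antisense names held no lncRNA-only peak in either library. For 5 of them no base lies outside a protein-coding gene, so the rule could not take a peak there. Kcnq1ot1, inside Kcnq1, held 1 Sham and 2 TAC peaks that are not counted here for that reason, and Peg13, inside Trappc9, also 1 and 2. Mhrt, a heart lncRNA antisense to the myosin gene Myh7, has 1.90 kb outside it, without a peak, and held 1 peak in each library in the shared stretch. The abundant nuclear lncRNA genes Malat1, of 6.98 kb, and Neat1, of 20.8 kb, lie wholly outside protein-coding genes and held no peak. Tug1, Dancr and Norad held none either.

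The widest lncRNA-only peak was a Sham peak of 5681 bp in Gm31615, at chr17:88319101-88324781 and row percentile 0.747. It was overlapped by 3 TAC peaks, the first 3260 bp wide at chr17:88319308-88322567 and row percentile 0.505. Gm31615 held 19 peaks in each library, of which 13 Sham and 15 TAC peaks were shared. In LOC115489511 a Sham peak of 4174 bp at chr2:30686086-30690259, row percentile 0.0570, spans the whole gene of 1.85 kb. The TAC peak over its start, 1358 bp wide, has its midpoint outside the gene, so the gene counts no TAC peak although its Sham peak is shared. In Gm1604a the direction was the other way: a TAC peak of 3795 bp, at chr17:7906688-7910482 and row percentile 0.417, lay over 3 Sham peaks of 501 to 1055 bp. Gm19385, 66.9 kb from Ctnnb1, held a Sham peak of 3592 bp at row percentile 0.532, and 2 TAC peaks lay within it. How a stretch is divided into peaks differed between the libraries at these genes, and the counts per gene depend on it.

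The shared peaks nearest the front of both lists were in Gm40237, at row percentile 0.0188 in Sham and 0.0207 in TAC, and 4930455D15Rik, at 0.0276 and 0.0231. Gm40237 is a gene of 1.12 kb, and its 2169 bp peak covers it whole. Lncenc1, which takes part in the self-renewal of embryonic stem cells, held 12 Sham and 9 TAC peaks, the first at 0.0607 and 0.0367. Gm14249 and Gm34112, which overlap each other 128 and 138 kb from Tshz2, share their leading peak, at 0.0563 and 0.0336. Pldi held a single peak in each library, at 0.0519 and 0.0460. These genes were named for an early shared peak, so the place of their leading peak in both lists follows from that choice.

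At the ends of genes, lncRNA genes were covered more often than protein-coding genes. Of 7906 lncRNA genes that overlap no protein-coding gene, 35.5% (34.5 to 36.6) had a Sham peak within 1000 bp of the annotated start or end, and 38.6% (37.5 to 39.7) a TAC peak. The same shares of 20665 protein-coding genes were 24.5% and 25.3%. Both libraries covered an end of 2109 of these lncRNA genes, Sham alone of 701 and TAC alone of 943. For the protein-coding genes these numbers were 3406, 1650 and 1830. Along the body the peaks were spread evenly, with between 8.98% and 10.8% of Sham peaks in each 10% of the gene length. Of the peaks in genes whose strand the promoter table gives, 6.06% in Sham and 5.54% in TAC lay within 1 kb of the gene start, beside 1.38% in each library for protein-coding genes, which are longer (median length 30.4 kb against 14.9 kb among genes with a peak).

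Promoter windows of the kind printed above were at hand for 9291 of the 12408 autosomal lncRNA genes. Of 7324 windows outside protein-coding genes, 345 (4.71%) were overlapped by a peak in both libraries, 268 (3.66%) by a Sham peak alone and 234 (3.19%) by a TAC peak alone. Of 20085 protein-coding windows, 1.91% were overlapped in both libraries, 270 (1.34%) by a Sham peak alone and 320 (1.59%) by a TAC peak alone. lncRNA windows hold few CG, with a median of 3, against 14 in protein-coding windows, and 4.26% of them hold 15 or more, against 48.1%. Coverage was highest at a medium CG number: 13.3% of lncRNA windows with 10 to 14 CG lay under a Sham peak and 11.2% under a TAC peak. Of windows with 20 or more CG, 3.47% lay under a Sham peak (6 of 173) and 5.78% (10 of 173) under a TAC peak. Of windows without any CG, 4.52% and 6.37% were overlapped, by peaks that reach past the window. The Snhg11 window printed above, with 21 CG, belongs to the richest class, Gm31816 and Gm40237 to the class covered most often.

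**Figure D5:**
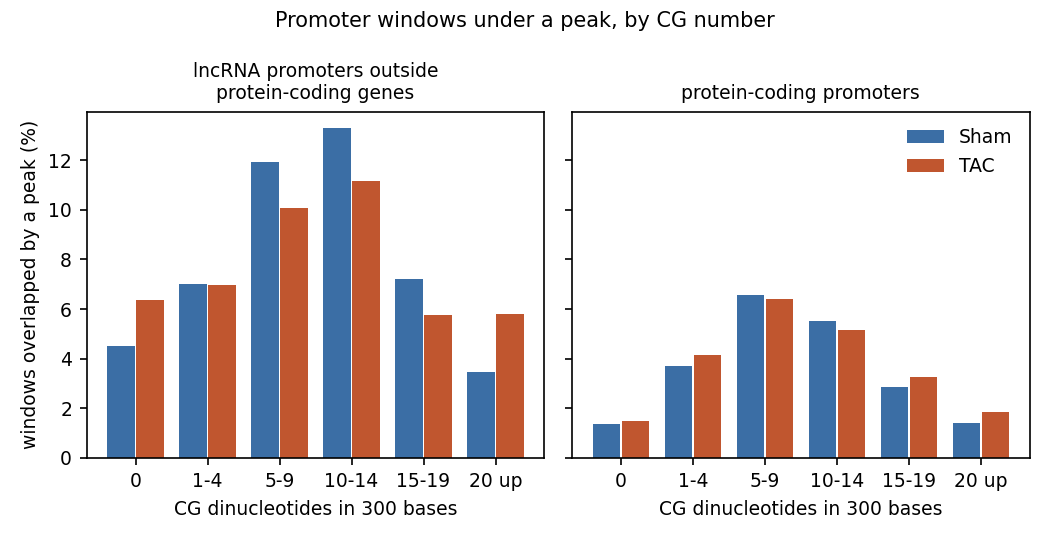
Share of promoter windows of 300 bases overlapped by a peak (y axis, %) by number of CG in the window (x axis), for lncRNA windows outside protein-coding genes (left) and protein-coding windows (right), in Sham (blue) and TAC (orange). In lncRNA windows the bars are highest at 10 to 14 CG, with 13.3% in Sham and 11.2% in TAC, and lower at 20 or more.

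By chromosome, TAC held more lncRNA-only peaks than Sham on each of the 19 autosomes. The TAC list as a whole is longer, with a ratio of 1.19 over all autosomal peaks. The ratio ran from 1.05 (0.944 to 1.17) on chromosome 11 to 1.19 (1.08 to 1.33) on chromosome 3, and the intervals of these extremes overlap. Per Mb of lncRNA gene outside protein-coding genes, Sham peaks were densest on chromosome 11 (80.0) and TAC peaks on chromosome 17 (86.0), and both were sparsest on chromosome 7 (52.0 and 61.3). No autosome therefore stood apart from the others in the direction of the difference. That direction is not free of list length, since the ratio over all autosomes was 0.975 with the shortened TAC list. The ratios by chromosome were not set against those of all peaks.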

How the data were processed

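MeDIP-seq libraries of Sham and TAC cardiomyocytes, 1 per group, were read from the peak lists that the authors deposited. Reads were handled with BWA 0.7.4-r385, Picard and HOMER 4.5 on mm10, per the submitters' processing notes. Calling was done per library against a shared input, with 500 bp as peak size, 1000 bp as minimum distance, 4-fold over input and a Poisson p of 0.0001, per the file headers. The score that the authors deposited is 1 for every peak, so it ranks nothing. Row order was used as a rank. Read as falling tag numbers, it sums to 99.3% of the tags in peaks of either file header.

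Peaks were assigned by midpoint to genes of the RefSeq table for GRCm38.p6, in which 9291 of 12408 autosomal lncRNA genes have a promoter sequence. Work was done in Python 3.11.15 with pandas 2.3.3, numpy 2.4.6 and scipy 1.17.1. The overlap and interval code was tested on simulated data. Intervals are Clopper-Pearson at 95%.

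Named genes were the 12 with most peaks, 8 each by the highest lower and the lowest upper interval bound of their TAC share, the 6 with the widest peak, the 6 with the earliest shared peak, and up to 6 of each gene list with a peak. Members and lists were chosen with earlier results of these data known. Alternatives varied the peak selection, gene assignment and overlap rule, and 1, rows averaged within blocks, was added after seeing the data.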

Additional observations from a re-analysis of the deposited data

How the results depend on the processing

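No paired analysis was possible because each group has 1 library. Of 216 alternative values for the main results, 152 stayed within the counting interval of the reported value or, for numbers of genes, within 1.5 times of it, and so did 657 of 678 for single genes. The other 21 moved, 9 of them with the first 50% of each list and 12 with peaks of at least 600 bp, where few peaks per gene remain. Intervals of single genes are wide, so a share that stays within them can still cease to stand apart from an even split.

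With the TAC list shortened to the number of Sham peaks, the ratio of all lncRNA-only peaks turned from above to below 1 (0.975), as did that of peaks without overlap (0.934) and those in windows with 3 to 5 genes (0.984) and 6 to 10 genes (0.929). In windows with 0, 1 to 2, 11 to 20 and over 20 genes it gave 1.21, 1.06, 0.905 and 0.937. There, 109 genes were 2-fold higher in TAC and 106 in Sham, the lncRNA-only share of TAC peaks was 8.39%, shared peaks were 63.3% (Sham) and 64.9% (TAC), pairs nearer the front in TAC 50.9%, and gene ends covered in TAC 34.2%.

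With thresholds of 11 inferred tags for Sham and 13 for TAC, the ratio was 1.06, that of peaks without overlap 1.16, and those in windows with 1 to 2, 3 to 5 and 6 to 10 genes 1.16, 1.06 and 1.0003. There, 142 genes were 2-fold higher in TAC, shared peaks were 65.8% (Sham) and 62.4% (TAC), pairs nearer the front 54.9%, and gene ends covered in TAC 35.4%.

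With the first 50% of each list, the ratio was 1.18, that of peaks without overlap 1.63, and that in windows with 1 to 2 genes 1.39. There, 88 genes were 2-fold higher in TAC and 25 in Sham, the lncRNA-only share was 8.89% (Sham) and 8.78% (TAC), shared peaks were 72.4% and 61.8%, TAC peaks in the earlier part of what remained 51.9%, gene ends covered 22.0% and 23.6%, and promoter windows covered in both 3.02%.

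With peaks of at least 600 bp alone, 3786 genes held a peak, 47 were 2-fold higher in TAC and 23 in Sham, and the ratio of peaks without overlap was 1.37. The lncRNA-only share was 8.98% (Sham) and 8.82% (TAC), shared peaks were 62.4% and 54.9%, peaks in the earlier 50% of what remained 50.9% and 52.7%, gene ends covered 19.1% and 20.5%, and promoter windows covered in both 2.38%.

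The lncRNA-only share was 8.90% (Sham) and 8.57% (TAC) by any overlap with a gene, 7.17% and 6.86% for lncRNA genes that overlap no protein-coding gene, and 7.92% and 7.64% with protein-coding genes extended by 5000 bp. With midpoints within 500 bp as shared, 65.2% (Sham) and 57.2% (TAC) of peaks were shared. With 500 bp at gene ends, 24.9% and 26.6% of genes were covered. Among genes with at least 10 peaks, 58 were 2-fold higher in TAC and 5 in Sham. By inferred tags per 10000000, 57.7% of pairs were higher in TAC, and with rows averaged within blocks, an alternative chosen after seeing the data, 60.2% were nearer the front. The cause of these changes was not tested, beyond that shorter lists hold fewer peaks. Depth limits what can be said of genes with few peaks: with 6 peaks in all, a 2-fold split is within counting error.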

Other observations

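On chromosome X, which lies outside the rule, lncRNA genes outside protein-coding genes held 78 Sham and 118 TAC peaks. Their ratio was 1.51 (1.13 to 2.04). The density, 15.7 Sham and 23.8 TAC peaks per Mb, was below that of every autosome. Xist, the lncRNA that silences an X chromosome in female cells, held 2 peaks in each library of these male mice. Ftx, beside Xist, held 2 Sham peaks and 1 TAC peak, and Firre held 1 TAC peak and no Sham peak. AW822252 and Gm14812 held 6 in each library. These genes, and the 2 that follow, were named after their values were seen. The upper part of the lists also holds lncRNA-only peaks without a counterpart: the earliest in Sham, at chr18:68691894-68692394 in Gm30821, stood at row percentile 2.82, and the earliest in TAC, at chr17:13541926-13542551 in 2700054A10Rik, at 3.33.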
